A study of Mus musculus with 5 samples.

Results

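The genes described here are 7 receptor genes of mouse chromosome 9: Cxcr6, Ccr2, Ccr3, Ccr1, Xcr1, Ccr9 and Ccrl2. They were chosen by gene symbol, and the symbols matched 7 of the 24084 genes in the count table. Ccr9, Cxcr6, Xcr1, Ccr1, Ccr3 and Ccr2 lie next to each other, in this order, within 435 kb of the mm10 genome. The label of a single cluster does not hold for Ccrl2, which lies 12.6 Mb from Ccr9.

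RNA was sequenced from mice aged 13 days, from their regulatory T cells (Tregs), a CD4 lineage marked by Foxp3 that holds back immunity. There were 3 libraries from skin-draining lymph node Tregs and 2 from skin Tregs. All 5 came from Foxp3-DTR mice, given as Foxp3-DTR/GFP in the design text, in which the Foxp3 locus drives a diphtheria toxin receptor and a fluorescent protein, so both groups carry that allele. The labels name no treatment, and the sources used here do not give the sort markers or how many animals and cells went into each library. Nothing says that the libraries of a group came from separate animals, so p-values measure only the spread between these libraries.

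Chemokine receptors are membrane proteins that cross the lipid bilayer repeatedly and signal through inhibitory G proteins when a small secreted chemokine binds, which directs the cell towards the source of the ligand. Lymph node homing of T cells depends on Ccr7, while receptors for tissue-made chemokines guide cells into skin, gut and inflamed sites and hold them there. Ccrl2 is the atypical one of the group: it binds the chemoattractant chemerin without the usual signalling.

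The 5 libraries held between 10468795 and 14595018 counts in genes, with 12173 to 12540 genes detected in lymph node and 9894 and 9192 in skin. Alignments at several places made up 64.5% to 72.0% of the records and are counted in no gene, so stretches that one receptor shares closely with a relative are missing from its value. The 8 Treg genes listed (Foxp3, Il2ra, Ctla4, Ikzf2, Cd4, Cd3d, Cd3e and Cd3g) summed to 8392 to 9933 CPM (read counts relative to the size of the library, with TMM scaling for its composition) in lymph node and to 9072 and 9978 in skin. The skin libraries also held 14 macrophage and monocyte genes at a summed 1609 and 1924 CPM, against 21.5 to 43.7 CPM in lymph node, and 4 keratinocyte genes at a summed 99.4 and 111 CPM, against at most 0.0782 CPM.

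The promoters of 4 receptors are shown first, to set genes that were higher in skin beside genes counted in a single tissue, as the bases upstream of the RefSeq start site (GRCm38.p6, the assembly of mm10), without bases that lie in an exon of the same gene. Cxcr6 and Ccr3 were higher in skin, Ccr9 was counted in lymph node alone and Ccr1 in skin alone. Capitals mark matches on either strand to the Runx motif TGTGGT or the AP-1 motif TGANTCA. Cxcr6 is read on the plus strand at chr9:123806227-123806474, Ccr3 on the plus strand at chr9:124021721-124021970, Ccr1 on the minus strand at chr9:123968693-123968942 and Ccr9 on the plus strand at chr9:123766961-123767168.
Cxcr6: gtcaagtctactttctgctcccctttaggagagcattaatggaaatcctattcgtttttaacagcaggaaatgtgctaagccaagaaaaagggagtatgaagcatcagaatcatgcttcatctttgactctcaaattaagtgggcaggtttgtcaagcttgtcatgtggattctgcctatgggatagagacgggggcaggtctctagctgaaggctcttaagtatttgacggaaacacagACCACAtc
Ccr3: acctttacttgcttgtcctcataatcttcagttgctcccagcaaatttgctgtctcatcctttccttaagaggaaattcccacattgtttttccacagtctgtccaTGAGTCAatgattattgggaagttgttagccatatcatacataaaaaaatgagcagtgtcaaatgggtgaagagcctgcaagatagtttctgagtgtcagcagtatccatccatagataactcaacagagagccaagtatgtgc
Ccr1: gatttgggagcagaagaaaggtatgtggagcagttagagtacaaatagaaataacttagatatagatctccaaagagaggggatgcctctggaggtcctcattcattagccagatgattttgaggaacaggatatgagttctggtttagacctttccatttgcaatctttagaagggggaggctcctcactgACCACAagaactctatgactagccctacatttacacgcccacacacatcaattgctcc
Ccr9: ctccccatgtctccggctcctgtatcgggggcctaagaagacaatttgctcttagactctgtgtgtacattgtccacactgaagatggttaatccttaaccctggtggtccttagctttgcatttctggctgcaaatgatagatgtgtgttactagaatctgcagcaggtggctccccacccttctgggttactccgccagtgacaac

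Runx proteins are transcription factors of T cells and of other blood lineages, and AP-1 is induced by activation through the antigen receptor. The Runx match began 10 bases before the start of Cxcr6 and 58 bases before the start of Ccr1, and the AP-1 match 144 bases before the start of Ccr3. Of 27025 mouse promoters of the same 250 bases, 14.2% held the Runx letters and 6.9% the AP-1 letters. The other motifs searched, on both strands, were the TATA box TATAAA (12.9% of promoters), STAT TTCNNNGAA (7.1%), forkhead TAAACA (12%), T-box GGTGTGA (3.3%) and ETS GAGGAAG (10.4%). Xcr1 held a match to the TATA box letters on the reverse strand, 160 bases before its start, and a forkhead match 178 bases before it. The same T-box match lay upstream of 2 of the 3 start sites of Ccrl2, whose windows overlap, inside the span of that gene. Ccr2 and Ccr9 held none of the 7 motifs in this window. All 7 receptors had a promoter entry. The upstream bases of Ccr2 lie almost wholly in an exon of another of its transcripts and are not shown. G and C made up 37.2% of them in Ccr2, 43.6% in Cxcr6 and Ccr1, 40.4% in Ccr3 and 50.4% in Ccr9, beside a median of 52.0% over all promoters.

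Cxcr6, Ccr2 and Ccr3 were higher in the skin Treg libraries than in the lymph node Treg libraries, and Ccr9 was lower. Ccr1, Xcr1 and Ccrl2 did not pass the test. All 7 passed the filter on low counts. The edgeR quasi-likelihood test with Benjamini-Hochberg adjustment thus called 3 of 7 higher and 1 of 7 lower at an adjusted p under 0.05, where it called 2.40% of the 11437 tested genes higher and 5.30% lower. The skin libraries lay above every lymph node library for 5 of the 7 and below them for 1, and the same held for 16.8% and 33.5% of all tested genes. The median log2 difference, skin minus lymph node, was 3.60 over the 7 receptors, also with Ccr1 and Ccr9 set at their bounds, and -0.21 over all tested genes. In bulk libraries, fewer cells that carry a receptor and less of its RNA per cell cannot be told apart.

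All 4 calls rested on each of the 3 lymph node libraries. Without any 1 of them the adjusted p of Cxcr6, Ccr2, Ccr3 and Ccr9 lay between 0.113 and 0.115, and edgeR called 0 genes of the whole table, although 2361 to 2484 had an unadjusted p under 0.05. Without skin library 1 or skin library 2, all 4 remained past the threshold, in fits where the remaining skin library was assumed to vary as the lymph node libraries do.

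**Figure D1:**
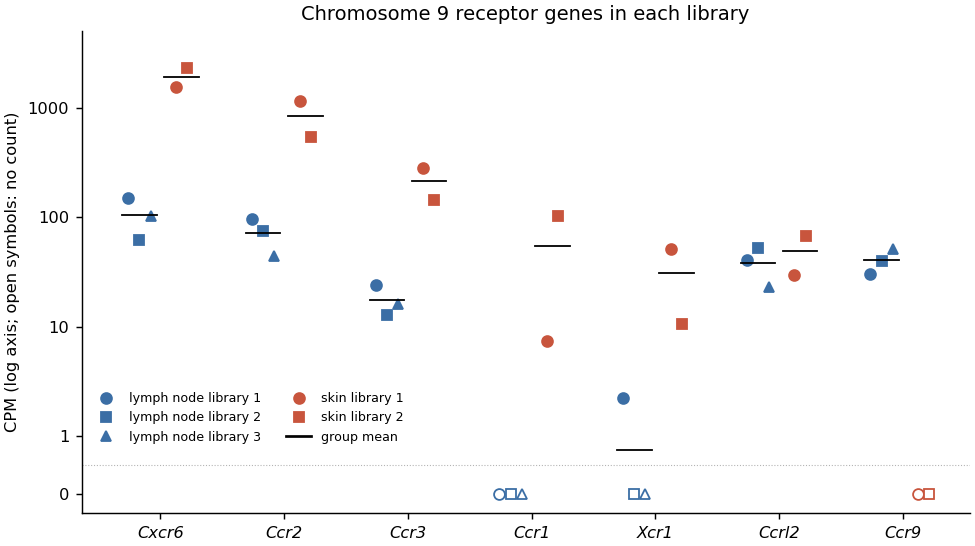
Level of each of the 7 receptors in each library, in CPM on a log axis, with 1 symbol for each of the 3 lymph node (blue) and 2 skin (red) libraries, a black bar at each group mean above 0, and open symbols at 0 below the dotted line for libraries without a count. Both skin symbols of Cxcr6, Ccr2 and Ccr3 lie above the lymph node symbols, Ccr9 is at 0 in both skin libraries, Ccr1 is at 0 in the 3 lymph node libraries, and Ccrl2 overlaps.

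Cxcr6 (chr9:123806475-123811760, plus strand), the receptor for the membrane-bound chemokine Cxcl16 and a gene of tissue-resident T cells, had the highest mean level of the 7 in both tissues, although Ccr2 was higher in CPM in lymph node library 2. Its level was 150, 62.6 and 103 CPM in lymph node libraries 1 to 3, and 1539 and 2309 CPM in skin libraries 1 and 2. Both skin libraries stood far above the highest lymph node library. The mean went from 105 ± 43.6 CPM (SD, n = 3) to 1924 ± 544 CPM (SD, n = 2), an 18.3-fold ratio of means, and the log2 difference was 4.19 ± 0.43 (SE; edgeR adjusted p = 0.0253). Natural killer cells also use Cxcr6, and their 4 listed markers (Ncr1, Klrb1c, Eomes and Klra8) were at 0 in both skin libraries. Of the 2 CD8 T cell markers, Cd8a was at 0 in both skin libraries and Cd8b1 was at 22.1 and 0 CPM, and together they summed to 41.4 to 69.2 CPM in lymph node.

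Ccr2 (chr9:124101950-124113557, plus strand), the receptor for Ccl2, Ccl7 and Ccl12 that brings monocytes and effector T cells into inflamed tissue, was at 95.9, 74.9 and 44.6 CPM in lymph node and at 1151 and 543 CPM in skin. The lower skin library still lay above every lymph node library. The means were 71.8 ± 25.8 CPM (n = 3) and 847 ± 430 CPM (n = 2), an 11.8-fold ratio, with a log2 difference of 3.56 ± 0.48 (SE; edgeR adjusted p = 0.0381).

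Ccr3 (chr9:124021972-124031689, plus strand), the eotaxin receptor best known from eosinophils, was at 24.0, 12.8 and 16.1 CPM in lymph node and at 282 and 145 CPM in skin. The groups did not overlap. The means were 17.6 ± 5.73 CPM (n = 3) and 213 ± 96.8 CPM (n = 2), a 12.1-fold ratio, with a log2 difference of 3.60 ± 0.50 (SE; edgeR adjusted p = 0.0402). Of the 7 eosinophil markers, 6 (Siglecf, Il5ra, Epx, Prg2, Ear1 and Ear6) were at 0 in both skin libraries, and the 7 summed to 0.0934 and 2.39 CPM there. Of 7 mast cell markers, 6 (Mcpt4, Cma1, Tpsb2, Cpa3, Fcer1a and Ms4a2) were at 0 in both skin libraries. Kit, the remaining one, was at 12.8 and 0 CPM in skin libraries 1 and 2 and at 7.57 to 21.7 CPM in lymph node.

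Ccr3 and Ccr2 kept a similar proportion: the ratio of their CPM was 0.250, 0.171 and 0.360 in lymph node and 0.245 and 0.267 in skin, so the skin values fell inside the lymph node range. Both were higher in skin library 1, Ccr2 by 2.12-fold and Ccr3 by 1.95-fold. Cxcr6 went the other way and was 1.5-fold higher in skin library 2, so that the CPM of Ccr2 per CPM of Cxcr6 was 0.748 in skin library 1 and 0.235 in skin library 2.

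Ccr2 is also a gene of monocytes, and part of the macrophage and monocyte list moved with it between the tissues. Of the 14 listed genes, 11 could be tested: Lyz2, Mrc1, Emr1 (now Adgre1), Cd163 and C1qb were called higher in skin and Ly6c2, a marker of classical monocytes, was called lower. Ly6c2 was at 0.0934 and 0 CPM in skin and at 8.60 to 16.8 CPM in lymph node. In skin library 1, 2 of the 14 were at 0, Fcgr1 among them, and in skin library 2, 3 were (Cd14, Itgam and Ly6c2). Between the skin libraries the summed list was 1.20-fold higher in library 2, while Ccr2 was higher in library 1. Emr1 (223 and 20.6 CPM) and Mrc1 (361 and 137 CPM) were higher in skin library 1, like Ccr2, and Cd163 (25.4 and 157 CPM) and C1qb (218 and 559 CPM) were higher in skin library 2. The part of these cells' RNA in the values of Ccr2, Ccr3 and Ccr1 was not tested.

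Ccr1 (chr9:123962124-123968692, minus strand), a receptor for Ccl3, Ccl5, Ccl6 and Ccl9 carried by many myeloid cells, was without a count in lymph node and at 7.38 and 103 CPM in the skin libraries. A count of 0 over the 3 lymph node libraries allows up to 0.0718 CPM (3 counts over the group), so the skin mean of 55.3 ± 67.8 CPM (n = 2) was at least 771-fold higher. The 2 skin libraries differed by 14.0-fold, and the exact 95% Poisson interval of the lower one, 5.84 to 9.19 CPM, covers counting error only and stays far from the higher one. The edgeR test did not call Ccr1 (adjusted p = 0.0598), whereas DESeq2 (adjusted p = 1.68e-06) and limma-voom (adjusted p = 0.0108) did, and so did edgeR without either skin library. Of 3495 genes with a skin mean of 20 to 80 CPM, 36 (1.03%) were at 0 in all 3 lymph node libraries. Among the macrophage genes called higher in skin, Lyz2, Cd163 and C1qb were also higher in skin library 2, while Emr1 and Mrc1 were higher in skin library 1.

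Xcr1 (chr9:123852315-123862029, minus strand), the receptor for Xcl1 that defines type 1 dendritic cells, was at 2.24, 0 and 0 CPM in lymph node and at 50.9 and 10.7 CPM in skin. The groups did not overlap, but the spread was wide: 0.748 ± 1.29 CPM (n = 3) against 30.8 ± 28.4 CPM (n = 2), a 41.2-fold ratio with a log2 difference of 5.34 ± 2.48 (SE; edgeR adjusted p = 0.228). The call changed with skin library 2 left out (edgeR adjusted p = 0.0210). Of 8 genes listed for type 1 dendritic cells, Clec9a, Batf3, Cadm1 and Tlr3 were at 0 in both skin libraries. The list summed to 4.93 to 19.7 CPM in lymph node and to 46.4 and 53.0 CPM in skin, carried there by Irf8 in library 1 (42.5 CPM) and by Flt3 in library 2 (52.4 CPM). The part of such cells in the Xcr1 values was not tested beyond these levels.

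Ccr9 (chr9:123678439-123784330, plus strand), the receptor for Ccl25 that directs T cells to the small intestine and thymus, was at 30.3, 39.6 and 51.2 CPM in lymph node and had no count in either skin library. This was the single receptor of the 7 that fell. The lymph node mean was 40.4 ± 10.5 CPM (n = 3), and a count of 0 over the 2 skin libraries allows up to 0.145 CPM, so the level was at least 279-fold lower in skin (edgeR adjusted p = 0.0411). Among 3731 genes with a lymph node mean of 20 to 80 CPM, 134 (3.59%) had no count in either skin library and 616 (16.5%) had none in just 1 of them. The GENCODE start of Ccr9 overlaps 22 exon bases of Slc6a20a on the other strand, a gene with 0 counts in all 5 libraries. Ccr9 also shares 1932 exon bases with AC165425.1 on the other strand and 269 with Gm17200 on the same strand. Neither of these was in the count table. The RefSeq start used for the promoter above lies inside the GENCODE span.

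Ccrl2 (chr9:111054486-111057519, minus strand) was at 40.4, 52.0 and 23.2 CPM in lymph node and at 29.7 and 67.8 CPM in skin. The groups overlapped, with a lymph node library on either side of the lower skin library. The means were 38.5 ± 14.5 CPM (n = 3) and 48.8 ± 27.0 CPM (n = 2), and the log2 difference of 0.34 was smaller than its SE of 0.69 (edgeR adjusted p = 0.807). This does not show that the level was equal in both tissues, since the SE leaves room for a difference either way.

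**Figure D2:**
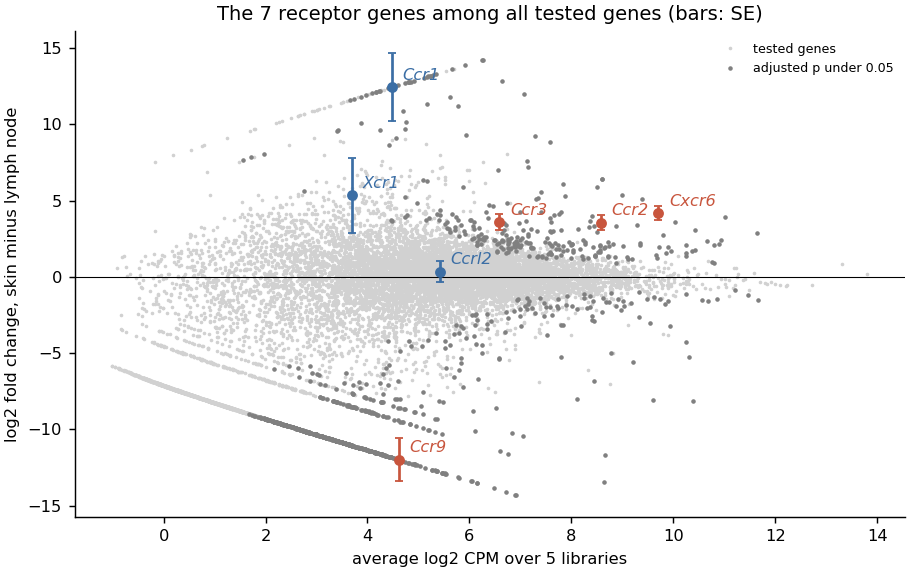
Log2 difference, skin minus lymph node, of every tested gene against its average log2 CPM over the 5 libraries, with genes called by edgeR in dark grey and the 7 receptors named, in red where called and in blue where not, with bars of 1 SE. Ccr9 and Ccr1 sit on the diagonal lines formed by genes with no count in a tissue, where the fitted difference depends on the prior count, while Cxcr6, Ccr2 and Ccr3 sit among abundant genes at 3.56 to 4.19.

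Levels of different receptors were compared per kb of the longest coding transcript. In lymph node the order was Cxcr6 (55.1 ± 22.9 CPM per kb), Ccrl2 (15.7 ± 5.90), Ccr2 (12.5 ± 4.50), Ccr9 (7.77 ± 2.02), Ccr3 (5.39 ± 1.75), Xcr1 (0.168 ± 0.291) and Ccr1 at 0 (SD, n = 3). The libraries of Ccrl2 and Ccr2 overlapped, as did those of Ccr2 and Ccr9 and those of Ccr9 and Ccr3, and Cxcr6 stood above all of them. In skin the order was Cxcr6 (1009 ± 285 CPM per kb), Ccr2 (148 ± 75), Ccr3 (65.2 ± 29.6), Ccrl2 (19.8 ± 11.0), Ccr1 (19.5 ± 23.9), Xcr1 (6.91 ± 6.39) and Ccr9 at 0 (SD, n = 2). The skin values of Ccr1 overlapped those of Ccrl2 and those of Xcr1, the genes next to it in this order, while both values of Ccrl2 lay above both of Xcr1. With the length of all exons together in place of the transcript, Ccr3 came before Ccr9 in lymph node and Ccr1 before Ccrl2 in skin.

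The 7 receptors summed to 342, 242 and 238 CPM in lymph node and to 3060 and 3179 CPM in skin, so the sum was nearly equal in the skin libraries although their makeup differed. Cxcr6 made up 43.7%, 25.9% and 43.3% of that sum in lymph node and 50.3% and 72.6% in skin. Ccr2 made up 37.6% in skin library 1 and 17.1% in skin library 2. Ccrl2 took 9.73% to 21.5% in lymph node and 0.971% and 2.13% in skin, at a level that overlapped between the tissues.

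**Figure D3:**
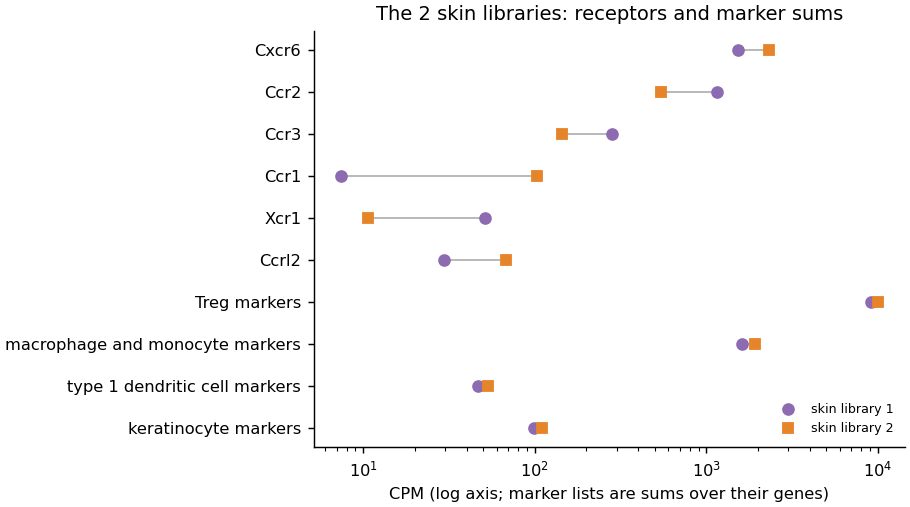
Level in skin library 1 (circles) and skin library 2 (squares), in CPM on a log axis, of the 6 receptors counted in skin and, below them, of 4 summed marker lists (Treg, macrophage and monocyte, type 1 dendritic cell and keratinocyte). Ccr2, Ccr3 and Xcr1 were higher in skin library 1, Cxcr6, Ccr1 and Ccrl2 in skin library 2, and each of the 4 lists drawn was 1.10-fold to 1.20-fold higher in skin library 2.

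The skin libraries also differed for genes in general. Over 5892 genes at 5 CPM or more in both, the median ratio of the higher to the lower library was 1.77 and the 90th percentile was 5.31. The ratios of Cxcr6 (1.5), Ccr3 (1.95), Ccr2 (2.12), Ccrl2 (2.29) and Xcr1 (4.77) lay below that percentile, and that of Ccr1 (14.0) lay above it.

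The position on the chromosome was set against the values of other genes there. The 6 adjacent receptors are separated by gaps of 22.1 kb (Ccr9 to Cxcr6), 40.6 kb (Cxcr6 to Xcr1), 100.1 kb (Xcr1 to Ccr1), 53.3 kb (Ccr1 to Ccr3) and 70.3 kb (Ccr3 to Ccr2). The table held 5 other genes between the ends of Ccr9 and Ccr2, of which 2 could be tested and 0 were called at an adjusted p under 0.05. Cxcr6 lies inside Fyco1, a gene on the other strand, with no exon bases in common. Fyco1 was at 126, 106 and 107 CPM in lymph node and at 36.0 and 155 CPM in skin (log2 difference -0.24, edgeR adjusted p = 0.857), so it did not follow Cxcr6. Lztfl1, which lies within the span of Ccr9, was at 32.5 to 45.1 CPM in lymph node and at 33.1 and 78.2 CPM in skin (edgeR adjusted p = 0.647).

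Between Ccrl2 and Ccr2 as the outermost genes, 67 of 128 other genes could be tested. The edgeR test called Plcd1 higher and Tcaim lower, 1.49% each, with a median log2 difference of -0.07. Within 500 kb of the 6 adjacent receptors, 9 of 15 other genes could be tested, 0 were called by edgeR, and their median log2 difference was 0.43. Adjacent receptors themselves went opposite ways: Ccr9 fell in skin and Cxcr6, the next receptor, rose. Around Ccrl2, in a window of 500 kb on either side chosen after its values were seen, Nbeal2 and Ltf were called higher and Als2cl lower among 10 tested genes.

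**Figure D4:**
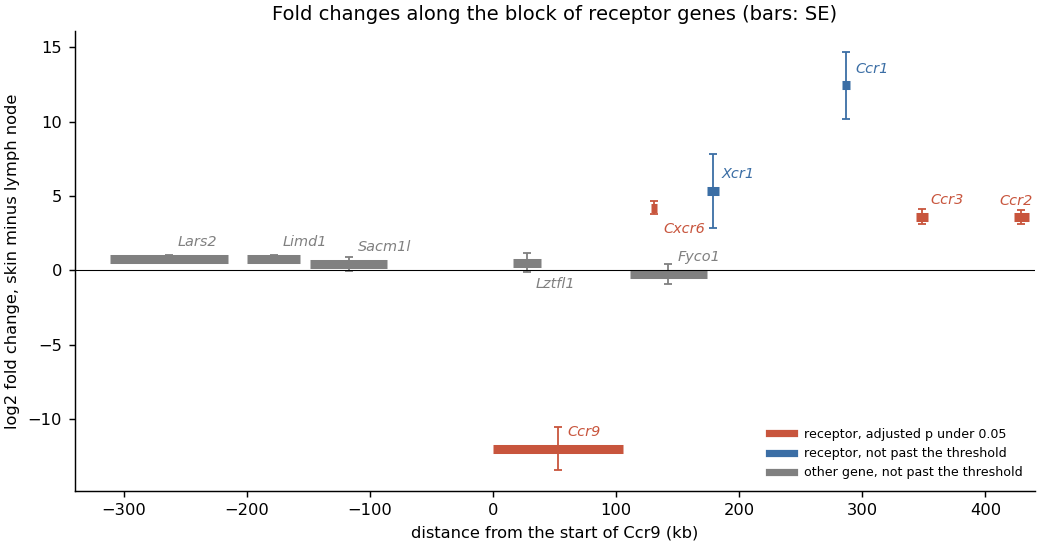
Log2 difference, skin minus lymph node, by distance in kb from the start of Ccr9, with each gene drawn over its span and vertical bars of 1 SE, for the 6 adjacent receptors (red where called, blue where not) and for tested genes before and between them (grey). The receptors reach from -11.98 (Ccr9) to 12.43 (Ccr1), both fitted against a group at 0, while Lztfl1 and Fyco1 lie near 0.

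The ligands of these receptors were mostly low in the Treg libraries themselves. Of 15 ligand genes, 2 (Ccl11 and Rarres2) had no count, 8 could be tested, and edgeR called 1 higher and 0 lower. The median log2 difference of the 8 was 2.63, also with genes at 0 in a tissue set at their bounds. Ccl6, a Ccr1 ligand made by myeloid cells, had no count in lymph node and was at 33.9 and 44.0 CPM in skin, at least 543-fold higher (edgeR adjusted p = 0.0463). Without any 1 lymph node library, Ccl6 was not called, as no gene was.

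For the receptor pairs, Cxcl16 was at 0.547 to 1.90 CPM in lymph node and at 1.03 and 0 CPM in skin beside the high Cxcr6. Xcl1, the Xcr1 ligand made by lymphocytes, was at 2.51 to 4.07 CPM in lymph node and at 0 in skin (edgeR adjusted p = 0.0535). Ccl24, an eotaxin that binds Ccr3, had no count in lymph node and was at 14.8 and 55.2 CPM in skin (edgeR adjusted p = 0.0502). Ccl25, the Ccr9 ligand, was at 33.4 CPM in skin library 1 and 0 in skin library 2, and at 4.69 to 12 CPM in lymph node. These 4 and the ligands named next were picked out after their values were seen, as the known partners of the receptors described. Ccl2 and Ccl7, which bind Ccr2, were counted in skin library 1 alone (15.7 and 20.7 CPM), the library with the higher Ccr2, and Ccl3 and Ccl9, which bind Ccr1, in skin library 2 alone (73.9 and 153 CPM), the library with the higher Ccr1. Other ligands did not follow this order: Ccl12, which binds Ccr2, was at 0 in both skin libraries, and Ccl5, which binds Ccr1, was at 32.4 and 26.5 CPM in skin libraries 1 and 2. Macrophage genes were present in both, as given above, and their part in these values was not tested.

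Among 22 genes of the signalling path downstream of chemokine receptors, all tested, edgeR called 1 higher and 0 lower, and their median log2 difference was 0.29. Gnai2, the inhibitory G protein subunit most used by chemokine receptors of lymphocytes, was at 249, 168 and 154 CPM in lymph node and at 540 and 769 CPM in skin (log2 difference 1.78 ± 0.31, SE; edgeR adjusted p = 0.0456). The groups did not overlap.

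Of 16 other chemokine receptor genes, on other chromosomes or elsewhere on this one, 8 could be tested and 4 had no count. The edgeR test called 1 higher and 0 lower, with a median log2 difference of 0.71, beside 3 higher and 1 lower of the 7 described here. The called gene was Ccr6, the receptor for Ccl20, at 109, 98.8 and 119 CPM in lymph node and at 429 and 741 CPM in skin (log2 difference 2.43 ± 0.30, SE; edgeR adjusted p = 0.0342). Ccr7, the lymph node homing receptor, also picked out after its values were seen, stood at 725, 603 and 831 CPM in lymph node and at 11.2 and 0 CPM in skin, and edgeR did not call it (adjusted p = 0.0679). The difference between the lists was not tested.

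The genes closest in pattern to each receptor were taken from 10678 tested genes by the distance between centred log2 CPM profiles over the 5 libraries, as a description without a test. Nearest to Cxcr6 were Ankrd6 (distance 0.381), Ifitm2 (0.396) and S100a4 (0.430). S100a4, a calcium-binding protein gene, was at 78.1, 29.8 and 38.6 CPM in lymph node and at 572 and 965 CPM in skin. Nearest to Ccr3 were Klrg1 (0.412), which encodes an inhibitory lectin-like receptor of effector lymphocytes, Plxdc1 (0.530) and Myadm (0.545). Klrg1 was at 174, 102 and 114 CPM in lymph node and at 1580 and 1163 CPM in skin.

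Among the 3 genes nearest to Ccr2 were Neb (0.639) and Nr4a2 (0.655), and nearest to Ccr9 were Mettl17 (0.058), Oas1b (0.296) and Slc39a11 (0.343). Among the 3 genes nearest to Ccr1 were App (0.119) and, farther off, Pi16 (0.956). App had no count in lymph node and was at 8.12 and 107 CPM in skin, the same order between the skin libraries as Ccr1. Ccrl2 lay closest to Gpr146 (0.259), Aco1 (0.288) and Pphln1 (0.394). Xcr1 had no close match: its nearest genes, Nrp2, Ccl8 and Alcam, lay at 1.93 to 2.26.

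**Figure D5:**
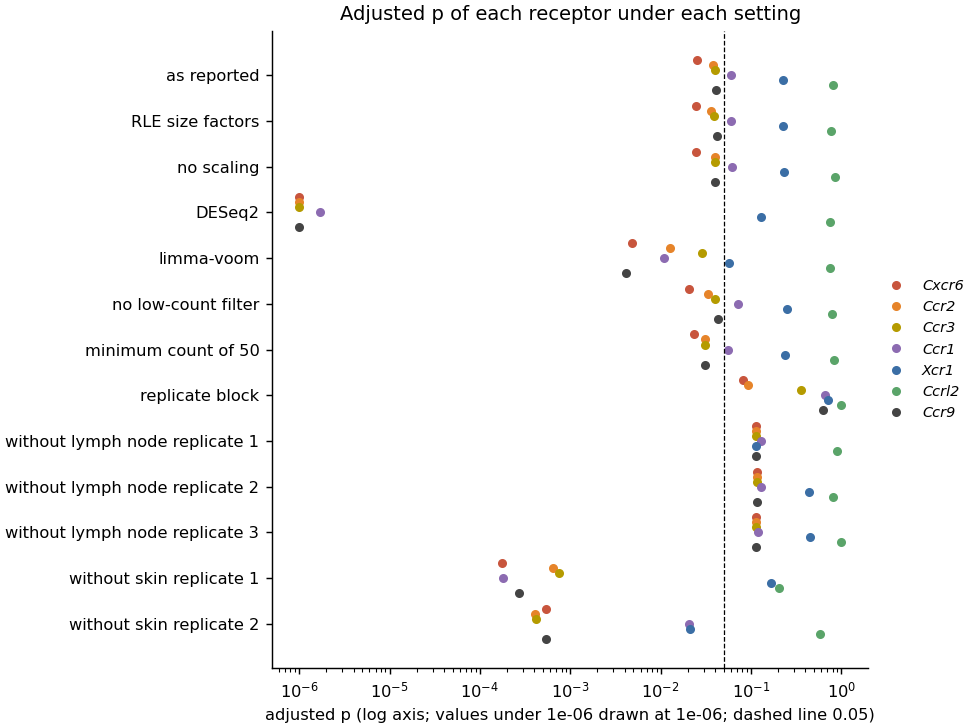
Adjusted p (horizontal, log axis) of each of the 7 receptors under the reported fit and each of 12 alternatives (rows), with a dashed line at 0.05. Points of Cxcr6, Ccr2, Ccr3 and Ccr9 lie left of the line except with the replicate block and without any 1 lymph node library, where they lie at 0.0817 or above.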

How the data were processed

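The deposited file is a merged table of read counts per gene for 5 libraries made with an ultra-low-input cDNA kit. The build mm10 and the tools HTSeq 0.6.1, TopHat2 2.0.12, SAMtools 0.1.19.0, CASAVA 1.8.2 and Bowtie2 2.1.0.0 are named per the submitters' processing notes. The sources used here do not give the strand setting or gene annotation of the counting. Its header names stand 1 cell to the left of their values, and columns were matched by the order of the names. The 5 summary rows were left out (genes took 19.3% to 21.7% of records).

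Counts were tested in R 4.3.3 with edgeR 4.0.16 (TMM scaling, default expression filter with a minimum count of 10, quasi-likelihood F test, skin against lymph node), adjusted over 11437 genes. The SE is the log2 difference divided by the square root of F. DESeq2 1.42.0, limma 3.58.1 (voom), other scalings and filters, a replicate block and leaving out each library were alternatives. The procedure was tested on simulated data with a smaller spread between libraries than here. That test therefore does not show how the fits perform on these data. A count of 0 was given a limit of 3 counts. Positions are from GENCODE M21. Every receptor was described, list genes past the threshold were named, and the 3 nearest genes per receptor were taken, of which some are not reported here. The members and lists were chosen with earlier results of these data known.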

Additional observations from a re-analysis of the deposited data

How the results depend on the processing

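The reported fit called 3 receptors higher in skin and 1 lower, and 881 genes in all. RLE factors (912 genes), no scaling (865) and both filter changes kept 3 and 1 receptors, with 315 genes called without a low-count filter and 1391 at a minimum count of 50. DESeq2 called 3262 genes and limma-voom 2231, and both also called Ccr1 higher. With a replicate block, 0 receptors were called higher and 0 lower, and 21 genes in all (772 at an unadjusted p under 0.05). The correlation of deviations was -0.03 for number 1 and -0.02 for number 2. The deviations of the 2 skin libraries mirror each other, so these values cannot show whether libraries of the same number shared an animal or batch. Leaving out each library gave 0 to 5 receptors called higher, 0 to 1 lower and 0 to 6065 genes. The lowest values came without a lymph node library. The highest number of receptors came without skin library 2, which added Ccr1 and Xcr1. The log2 difference of Ccrl2 was -0.029 with the block and -0.38 to 0.81 with libraries left out, negative without skin library 2. The cause was not tested. Cxcr6, Ccr2, Ccr3, Ccr9, Ccr1 and Xcr1 kept their direction in all 12 alternatives, with ranges of 3.87 to 4.54, 2.91 to 3.996, 3.03 to 3.99, -12.10 to -9.68, 9.50 to 13.38 and 3.81 to 11.54. With 2 skin libraries, a library's own deviation and a difference between tissues are poorly separated, and the lymph node values of Xcr1 rest on low counts.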
